A study of Solanum lycopersicum with 24 samples.

Results

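Tomato plants answer wounding and chewing insects by filling their leaves with proteins that spoil the meal. The signal runs through the peptide systemin and the hormone jasmonate, which leads to the destruction of repressor proteins (JAZ proteins) and frees the transcription factor MYC2 to switch on defence genes. The products either block the digestive proteases of the insect or break down amino acids that it needs. The 5 genes described here are of this late, effector class. *mcpi* encodes an inhibitor of metallocarboxypeptidases, and *PIIF* the wound-induced proteinase inhibitor I, which blocks serine proteases. *TD2* encodes a threonine deaminase that removes threonine in the insect gut, *ARG2* an arginase that does the same to arginine, and *LAPA1* the wound-inducible leucine aminopeptidase A.

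Their transcripts were followed in roots and leaflets (first fully-expanded leaf) of 2 tomato genotypes, both *Solanum lycopersicum* cv. Moneymaker: the wild type (WT) and the mutant *res* (restored cell structure by salinity). Plants of 6 weeks in hydroponic culture gave tissue either as control, harvested before any salt was added, or after 5 days in 200 mM NaCl, with a weaker solution on the first day. Each of the 8 groups (2 genotypes, 2 organs, 2 treatments) had 3 Tomato Gene 1.1 ST arrays, 24 in all, and each array carried RNA pooled from 3 plants. Salt and 5 days of further growth therefore cannot be told apart in a comparison of salt with control, whereas *res* vs WT at 1 treatment compares plants harvested at the same stage. *res* is a single mutant line, so that what is described holds for this line against its background cultivar.

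The genes were selected by symbol: a probe set was taken where its only gene symbol, or the RefSeq synonym of it, was one of the 5 names. Each name had exactly 1 probe set, so 5 of 67795 probe sets on the array, or 5 of 21323 genes with a symbol, are described. *mcpi* and *ARG2* were found under these names, *TD2* under Td and *LAPA1* under lap2, while *PIIF* is listed by RefSeq as a synonym of LOC543954. The group of genes was chosen with the values of control leaves in view. For this reason every comparison of these 5 genes that contains control leaves is given as a description, as a log2 difference with its standard error (SE) and no p-value. Their comparisons in roots and in salt-stressed leaves were tested. Other genes are given with p-values from the same fits, on lists that were likewise chosen with earlier results known. The p-values come from limma, are two-sided and carry the Benjamini-Hochberg adjustment for 67795 probe sets. A gene was called when its adjusted p was under 0.05 and its change at least 2-fold.

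Levels are log2 intensities after robust multi-array average (RMA), so that a step of 1 is a 2-fold step. They serve to compare arrays for 1 gene, not 1 gene with another. The medians of the 24 arrays lay between 1.84 and 2.17, and the files carry no detection calls. The organ labels were checked first: all 9 leaf markers measured were higher in every leaf array than in every root array (*CAB4*, a chlorophyll-binding protein, at least 10.7 against at most 6.80). Of 4 root markers, *fer* and *NRAMP1* separated the organs, whereas *FRO1* and *PT2* overlapped. Both WT control leaf array 1 and WT salt root array 3 were far from their own replicates: the first differed by over 2-fold from the average of its fellow arrays in 2494 probe sets and the second in 1399, against 58 to 1054 on each remaining array. Where leaving out one of them moved a result of *mcpi* or *TD2* by a large step, the value without it is given in the same paragraph. Since whole organs were extracted, fewer cells that express a gene and less RNA per cell cannot be told apart.

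In leaves of *res* grown without stress, all 5 defence transcripts were higher than in WT, and *mcpi* had the highest difference of all probe sets on the array. For *mcpi* the 3 *res* arrays read 10.89, 10.96 and 11.00, and the 3 WT arrays 4.18, 2.65 and 2.45. The difference was 7.86 ± 0.33 (SE, n = 3 per group), that is 232-fold. *TD2* read 10.65, 10.51 and 10.55 in *res* and 5.56, 2.86 and 3.35 in WT, a difference of 6.64 ± 0.48 or 100.1-fold, which was rank 4 of the array. In both genes WT array 1 was the highest of its group, and the spread of the WT plants was far wider than that of *res*. Without that array the differences were 8.41 for *mcpi* and 7.46 for *TD2*.

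*ARG2* read 5.98, 6.45 and 6.41 in *res* control leaves and 2.22, 1.50 and 1.47 in WT, a difference of 4.55 ± 0.28 (23.5-fold, rank 19). *LAPA1* read 7.09, 7.37 and 7.41 against 3.54, 3.18 and 2.99, a difference of 4.06 ± 0.17 (16.6-fold, rank 26). *PIIF* was the dimmest, with 3.35, 3.64 and 3.51 against 1.22, 2.09 and 1.41, a difference of 1.93 ± 0.23 (3.80-fold, rank 195). In none of the 5 genes did the arrays of the genotypes overlap, as in 8.79% of all probe sets that lay wholly higher in *res* and 26.9% that lay wholly lower. The WT levels of *ARG2* and *PIIF* lay at or below the median of the array (27.9% and 18.4% of probe sets were lower), a range in which RMA can understate a fold. Over all probe sets, 1.32% were called higher and 2.6% lower in *res* control leaves, with a median difference of -0.12. Since the genes were selected on this contrast, their 5 of 5 says nothing beyond the selection. Normalization repeated within each organ moved that median to -0.0016 and the split of calls from 893 higher and 1765 lower to 1264 and 1334, while the 5 differences remained between 2.14 and 7.79.

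**Figure D1:**
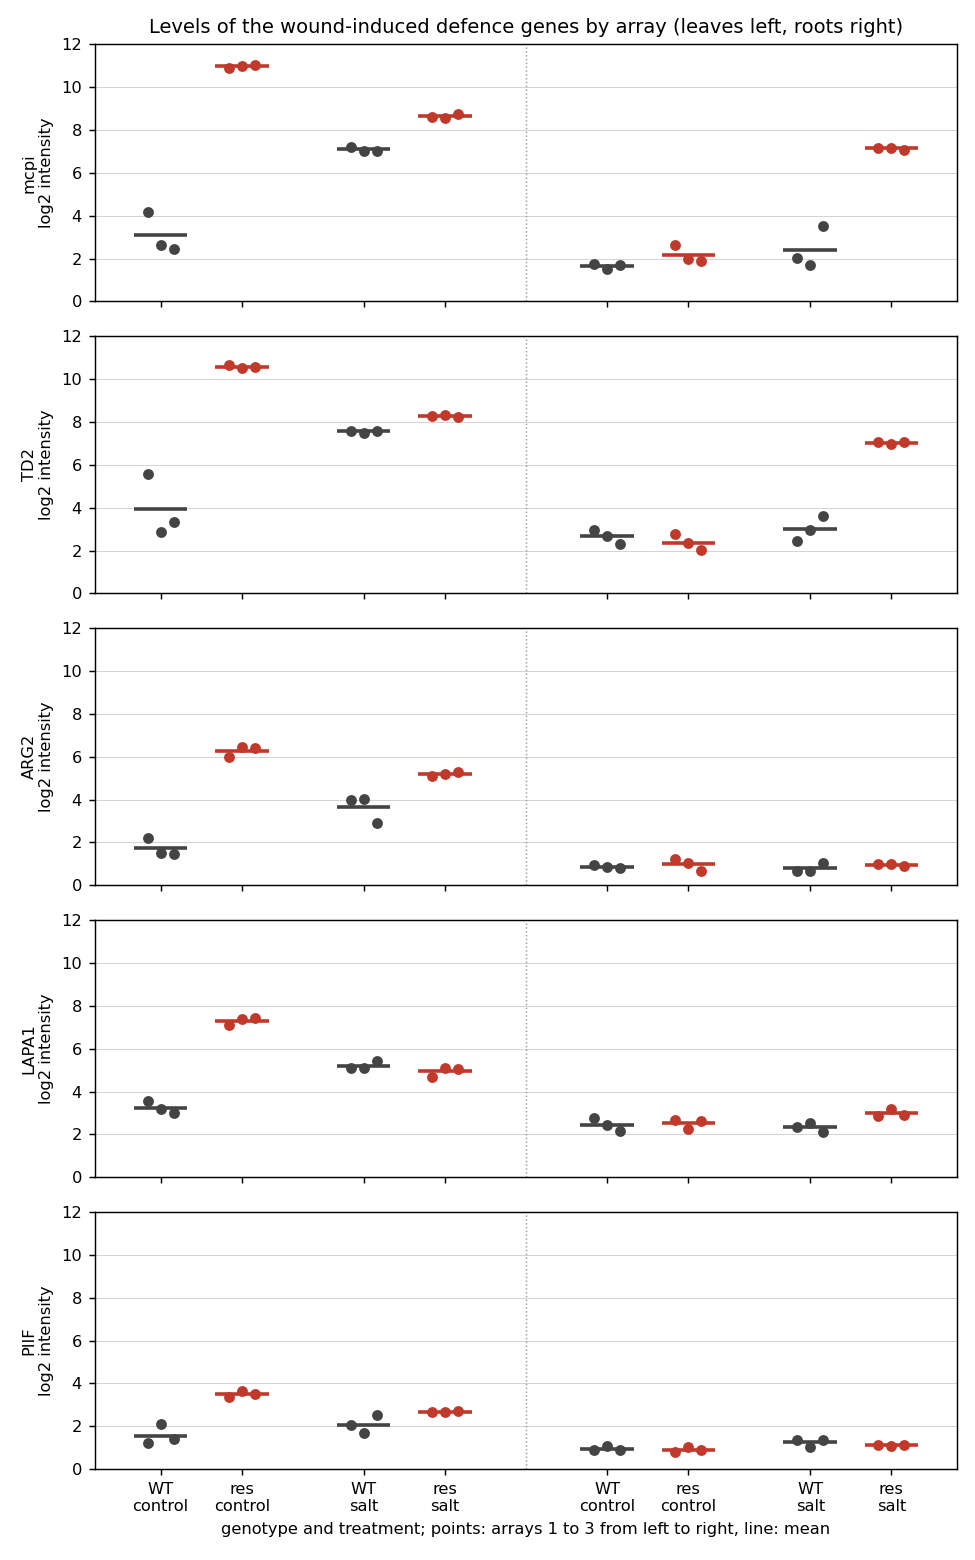
Log2 intensity (vertical axis) of the 5 genes on each of the 24 arrays, by genotype (WT grey, *res* red), treatment and organ (leaves left of the dotted line, roots right). Points are arrays and lines are means of 3: *mcpi* and *TD2* stand near 11 in *res* control leaves and near 7 in *res* salt-stressed roots, while the other 3 genes remain at or below 3.20 in every root array.

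Salt moved the leaves of the genotypes in opposite directions. In WT leaves *mcpi* went from the control values above to 7.19, 7.03 and 7.03 after salt, a difference of 3.99 ± 0.33 (15.9-fold), and *TD2* to 7.58, 7.48 and 7.58, a difference of 3.62 ± 0.48 (12.3-fold). *ARG2* (3.97, 4.04 and 2.89) and *LAPA1* (5.07, 5.11 and 5.44) were 1.90 ± 0.28 and 1.97 ± 0.17 above their controls. In these 4 genes every salt array lay above every control array, which was so in 14.8% of all probe sets (17.1% lay wholly below). *PIIF* (2.05, 1.68 and 2.52) differed by 0.51 ± 0.23 and its arrays overlapped. Without WT control array 1 the differences were 4.54 for *mcpi* and 4.44 for *TD2*. Among all probe sets 4.56% were called higher and 2.42% lower by salt in WT leaves, 3089 and 1644 in number, or 2414 and 1983 with normalization within each organ.

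In *res* leaves the same 5 transcripts were lower after salt, and every salt array lay below every control array, as in 17.1% of all probe sets (13.6% lay wholly above). *mcpi* read 8.61, 8.56 and 8.73, a difference from control of -2.32 ± 0.33, and *TD2* 8.26, 8.31 and 8.24, a difference of -2.30 ± 0.48. *LAPA1* read 4.68, 5.08 and 5.06, a difference of -2.35 ± 0.17. *ARG2* (5.09, 5.20 and 5.28) and *PIIF* (2.68, 2.67 and 2.70) were lower by smaller steps, of -1.09 ± 0.28 and -0.82 ± 0.23. Of all probe sets, 1.84% were called higher and 1.56% lower in this comparison.

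The difference between the salt responses of *res* and WT leaves was -6.31 ± 0.46 for *mcpi* and -5.92 ± 0.69 for *TD2*. It was -4.33 ± 0.23 for *LAPA1*, -2.99 ± 0.40 for *ARG2* and -1.33 ± 0.32 for *PIIF*. All 5 were negative. Without WT control array 1 the values were -6.86 for *mcpi* and -6.74 for *TD2*, and without WT control array 2 that of *TD2* was -5.39. The background of this interaction was 1.66% of probe sets called higher and 2.46% called lower. These values hold the control leaves and are descriptive.

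The level that WT leaves reached in salt stayed under that of unstressed *res* leaves in all 5 genes. The gap between *res* control leaves and WT salt-stressed leaves was 3.87 for *mcpi* (14.6-fold), 3.02 for *TD2* and 2.65 for *ARG2*. It was 2.08 for *LAPA1* and 1.42 for *PIIF*. No arrays overlapped, but the share of all probe sets without overlap was not computed for these groups. The gap holds the control leaves, with which the genes were chosen in view, and is descriptive. The order of the 4 leaf groups was *res* control, *res* salt, WT salt and WT control in *mcpi*, *TD2*, *ARG2* and *PIIF*. In *LAPA1* WT salt came before *res* salt, with arrays that overlapped.

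Under salt the genotypes came close in leaves, and 2 of the 5 genes were called. *mcpi* remained higher in *res*, by 1.55 ± 0.33 (2.92-fold; limma adjusted p = 0.00568), and so did *ARG2*, by 1.56 ± 0.28 (2.95-fold; adjusted p = 0.00208). *ARG2* rests in part on WT salt array 3 (2.89), without which its difference was 1.19 and still called. The other 3 were not called. *TD2* differed by 0.72 ± 0.48 (adjusted p = 0.344), although no arrays overlapped (9.96% of all probe sets lay wholly higher in *res*). Its SE is estimated from all 4 leaf groups, WT control array 1 included. Without that array the same difference had an SE of 0.12 and an adjusted p of 0.000705, still under 2-fold. *PIIF* differed by 0.60 ± 0.23 (adjusted p = 0.0859) and *LAPA1* by -0.27 ± 0.17 (adjusted p = 0.301), the latter with overlapping arrays. The background was 1.15% of probe sets called higher and 3.21% called lower, 783 and 2177 in number, and 1153 and 1265 with normalization within each organ. The median of all probe sets was -0.11 and that of the 5 genes 0.72.

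**Figure D2:**
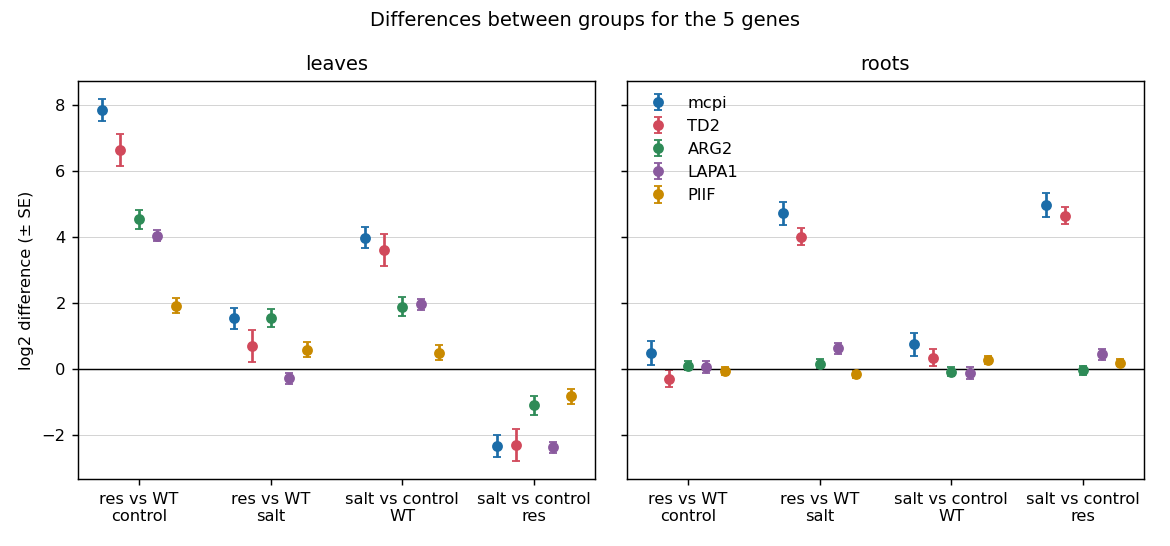
Log2 difference (vertical axis, ± SE) of the 5 genes in 4 comparisons in leaves (left) and roots (right), from fits on 12 arrays per organ. In leaves the differences of *res* vs WT are far larger in control (1.93 to 7.86) than in salt (-0.27 to 1.56) and salt is positive in WT and negative in *res*, while in roots only *mcpi* and *TD2* depart from 0 by more than 1, in *res* salt-stressed roots.

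Roots gave a different picture, in which the 5 genes split into 2 and 3. In control roots none was called between *res* and WT. *mcpi* read 2.61, 1.96 and 1.88 in *res* and 1.76, 1.49 and 1.70 in WT, a difference of 0.50 ± 0.36 (adjusted p = 0.497) with arrays that did not overlap, as in 14.6% of all probe sets that lay wholly higher in *res*. *TD2* read 2.78, 2.33 and 2.01 against 2.95, 2.70 and 2.32, a difference of -0.28 ± 0.26 that overlapped. The differences of *ARG2*, *LAPA1* and *PIIF* were 0.12, 0.07 and -0.05, with adjusted p-values of the 5 genes from 0.497 to 0.891. In limma none of the 5 had an unadjusted p under 0.05 here, against 22.6% of all probe sets, and none was called without moderated variances. This was the comparison with the most calls between the genotypes in roots, 2.96% of all probe sets higher and 2.47% lower in *res*.

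After salt, *mcpi* and *TD2* rose in *res* roots and not detectably in WT roots. *mcpi* read 7.16, 7.17 and 7.07 in salt-stressed *res* roots, 4.98 ± 0.36 above control (31.6-fold; limma adjusted p = 9.54e-07), the difference of rank 2 on the array. *TD2* read 7.04, 6.98 and 7.07, a rise of 4.65 ± 0.26 (25.2-fold; adjusted p = 1.24e-07), which was rank 5. The replicates of both genes lay closer together in this group than in any other root group, and more than 4 above the highest control root array of either genotype. Of all probe sets 1.58% were called higher and 1.53% lower by salt in *res* roots, and of the defence genes 2 of 5 were called higher and none lower.

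*ARG2*, *LAPA1* and *PIIF* were not called in that comparison. *LAPA1* read 2.88, 3.20 and 2.88 in salt and 2.68, 2.27 and 2.65 in control, a difference of 0.45 ± 0.17 (adjusted p = 0.126) without overlap, where 15.6% of all probe sets lay wholly higher in salt. *ARG2* differed by -0.02 (adjusted p = 0.951) and *PIIF* by 0.20 (adjusted p = 0.311). *ARG2* lay between 0.66 and 1.22 and *PIIF* between 0.82 and 1.37 in all 12 root arrays, below the median of every array. At that level a change in roots may not be detectable on these arrays.

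In WT roots salt called none of the 5 genes. *mcpi* read 2.02, 1.69 and 3.52 in salt, a difference of 0.76 ± 0.36 (adjusted p = 0.234), and *TD2* 2.46, 2.94 and 3.61, a difference of 0.35 ± 0.26 (adjusted p = 0.484). In both genes the highest value came from array 3, the one that stood apart, and without it the differences were 0.20 and 0.05. *ARG2*, *LAPA1* and *PIIF* differed by -0.08, -0.11 and 0.29 (adjusted p = 0.809, 0.774 and 0.145). In limma only *PIIF* had an unadjusted p under 0.05, 1 of 5, and 0 were called without moderated variances. Of all probe sets 22% had an unadjusted limma p under 0.05 in this comparison. The background in WT roots was 1.5% of probe sets called higher and 1.21% lower.

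Salt-stressed roots of *res* and WT differed in these 2 transcripts. *mcpi* was higher in *res* by 4.72 ± 0.36 (26.4-fold; limma adjusted p = 3.3e-06, rank 8), and *TD2* by 4.02 ± 0.26 (16.2-fold; adjusted p = 8.39e-07, rank 21). Without WT salt array 3 the differences were 5.28 and 4.32. *LAPA1* was higher by 0.64 ± 0.17 with an adjusted p of 0.0401 but under 2-fold, and over the alternative settings its adjusted p ran from 0.0213 to 0.162. *ARG2* (0.17, adjusted p = 0.588) and *PIIF* (-0.13, adjusted p = 0.607) overlapped between genotypes. Of all probe sets 1.18% were called higher and 0.985% lower.

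The salt response itself differed between the genotypes in roots, by 4.22 ± 0.50 for *mcpi* (limma adjusted p = 0.000116) and by 4.30 ± 0.37 for *TD2* (adjusted p = 6.59e-06). Without WT salt array 3 these values were 4.78 and 4.61. The interaction was not called for *LAPA1* (0.56, adjusted p = 0.278), *ARG2* (0.05, adjusted p = 0.95) or *PIIF* (-0.08, adjusted p = 0.891). The background was 1.8% called higher and 1.89% called lower.

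The organs can be set against each other for the effect of the mutation. In control the *res* vs WT difference was larger in leaves than in roots by 7.36 for *mcpi*, 6.93 for *TD2*, 4.43 for *ARG2*, 3.98 for *LAPA1* and 1.98 for *PIIF*. Without WT control leaf array 1 the first 2 were 7.91 and 7.75. These values are descriptive, beside a background of 2.91% higher and 4.93% lower in leaves than in roots. In salt the direction turned for 2 genes. The difference was smaller in leaves than in roots by -3.18 ± 0.52 for *mcpi* (adjusted p = 0.000156) and by -3.30 ± 0.59 for *TD2* (adjusted p = 0.000387), whereas for *ARG2* it was larger in leaves by 1.39 ± 0.33 (adjusted p = 0.00535). *ARG2* lay between 0.66 and 1.22 in every root array, a level at which a difference in roots may not be detectable. Its value was thus close to its leaf difference in salt alone, 1.56. *LAPA1* (-0.91, limma adjusted p = 0.015) was under 2-fold, and *PIIF* was 0.74 (adjusted p = 0.0623). Without WT salt root array 3 the values of *mcpi* and *TD2* were -3.73 and -3.60. Without WT salt root array 2 *LAPA1* was called as well, at -1.01 (adjusted p = 0.0123). In salt 1.62% of probe sets were called higher and 5.36% lower, 1101 and 3637 in number. Normalization within each organ gave 1662 and 2091, and in control 2596 and 2645 in place of 1974 and 3341.

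Across the 8 groups, *mcpi* and *TD2* followed each other closely, with a correlation of 0.99 over the 24 arrays, 0.99 within leaves and 0.98 within roots. *mcpi* correlated with *ARG2* at 0.98, with *LAPA1* at 0.94 and with *PIIF* at 0.88 within the 12 leaf arrays. Within the 12 root arrays the same values were 0.33, 0.68 and 0.28. The arrays share groups, so these correlations describe the group means and are given without a test. The level of *mcpi* in *res* salt-stressed roots (7.13 on average) and in WT salt-stressed leaves (7.09) overlapped. For *TD2* the same root group was lower than that leaf group by 0.52, without overlap.

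Close relatives of *ARG2* and *LAPA1* did not show the leaf pattern. *ARG1*, the second arginase gene and a direct neighbour of *ARG2* in the RefSeq gene order, had group means between 1.48 and 2.68. Its differences were 0.20 in control leaves of *res* vs WT and 0.48 and 0.56 for salt in WT and *res* leaves, all under 2-fold. In control leaves *ARG1* lay under the median of all probe sets, at 1.48 in WT (median 2.11) and 1.68 in *res* (median 1.94). At that level a leaf pattern may not be detectable. *LAPA2*, which RefSeq also lists as LapN, the neutral form that is known as constitutive, had group means between 7.41 and 9.01. It differed by -0.28 in control leaves of *res* vs WT (adjusted p = 0.0827) and by 0.17 and -0.01 for salt in WT and *res* leaves. The probe sets of such relatives may take up part of each other's signal, which was not tested. The means of *ARG2* and *LAPA1* in control leaves were 6.28 and 7.29 in *res* against 1.73 and 3.23 in WT, while those of *ARG1* and *LAPA2* were 1.68 and 7.42 against 1.48 and 7.70.

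**Figure D3:**
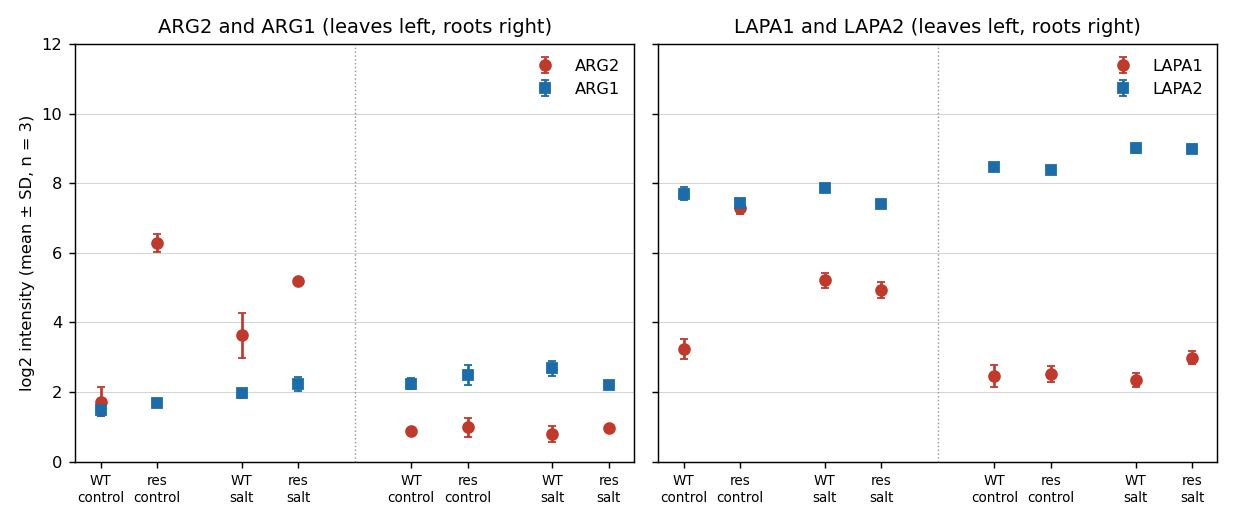
Log2 intensity (mean ± SD, n = 3 arrays) of *ARG2* (red) with its relative *ARG1* (blue) on the left and of *LAPA1* (red) with *LAPA2* (blue) on the right, over the 8 groups. *ARG2* and *LAPA1* differ between *res* and WT control leaves by 4.55 and 4.06, while *ARG1* and *LAPA2* differ there by 0.20 and -0.28.

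Among 9 other genes of the wound and systemin response that were measured, the control leaves of *res* had 1 called higher and 1 lower, beside 1.32% and 2.6% of all probe sets. The first was LOC101259064, which RefSeq lists under the polyphenol oxidase synonym PPO, enzymes that tan proteins in damaged tissue (1.50 ± 0.26, adjusted p = 0.00197). The second was *MPK3*, a mitogen-activated protein kinase of early stress signalling (-2.43 ± 0.31, adjusted p = 0.000208). LOC101259064 moved in leaves in the directions of the defence genes: it rose with salt in WT leaves by 1.22 ± 0.26 (adjusted p = 0.00512) and fell in *res* leaves by 3.11 on the log2 scale (adjusted p = 1.01e-05). In salt-stressed leaves it was lower in *res* than in WT (-2.82, adjusted p = 1.41e-05), unlike *mcpi* and *ARG2*. *MPK3* went the other way, with -1.17 in WT and 1.58 in *res* leaves for salt. LOC101259357, also on this list, was not called in control leaves, at 2.38 in *res* and 4.49 ± 2.46 (SD, n = 3) in WT. Its mean was lower after salt in *res* leaves, at 1.87. In WT leaves it was 3.86 after salt, but the control arrays ran from 2.99 to 7.32, around the salt arrays (3.49 to 4.26). The lower WT mean after salt rests on the highest control array, and no direction is read from it. In roots LOC101259064 rose with salt in either genotype, by 1.61 (WT, adjusted p = 0.000223) and 1.44 (*res*, adjusted p = 0.000467). *cevi57*, also on this list, fell with salt in *res* roots (-2.79, adjusted p = 7.06e-06), where *mcpi* and *TD2* rose.

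Genes listed for jasmonate synthesis did not, as a list, follow the defence genes. The list takes in *lox* and *opr* genes by name, and the part of each in jasmonate synthesis was not tested. Of 10 measured, 4 were called higher and 1 lower in control roots of *res*, the organ where the defence genes were low in both genotypes and where 2.96% and 2.47% of all probe sets were so called. *aos*, allene oxide synthase, was higher there by 4.72 ± 0.13 (limma adjusted p = 1.1e-10), *loxD*, a lipoxygenase, by 2.55 ± 0.09, *Fad7*, a fatty acid desaturase, by 1.32 and *aoc*, allene oxide cyclase, by 1.23. *opr2* was lower by -2.25. In control leaves, where the defence genes were high, none of the 10 was called higher and *aos* was lower in *res* (-2.57 ± 0.18, adjusted p = 2.32e-06). In salt-stressed roots *aos* was still higher in *res* (3.23 ± 0.13), although salt called no gene of this list higher in *res* roots. *loxD* fell there by 1.53 on the log2 scale. In leaves *loxC* moved in the directions of the defence genes. Salt called it lower in *res* (-1.02), while its WT mean went from 5.48 to 6.06 with overlapping arrays. In the leaf interaction *loxC* was called negative (-1.60) and 2 other genes of the list positive. The same calls took in 2.46% and 1.66% of all probe sets.

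Of 4 genes listed for jasmonate signalling, *SLJAZ3*, a JAZ repressor, and *JA2*, a transcription factor, were called higher in control roots of *res* (3.31 and 3.90). Of all probe sets 2.96% were called higher there. Neither of these 2 genes reached 2-fold in control leaves (0.83 and 0.99). With salt *JA2* also rose in WT roots, from a mean of 3.61 to 7.26, and in WT leaves, from 5.05 to 7.15. In *res* leaves it went from 6.04 to 7.01. Its leaf interaction was called negative (-1.14), as in 2.46% of all probe sets. *MYC2* was called in none of the comparisons of genotypes or treatments, with differences from -0.54 to 0.51, and *Coi1*, the jasmonate receptor, in none either (-0.73 to 0.20). In salt-stressed roots *SLJAZ3* remained higher in *res* (2.12, adjusted p = 9.97e-08) and *JA2* did not differ by a called amount (0.11).

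**Figure D4:**
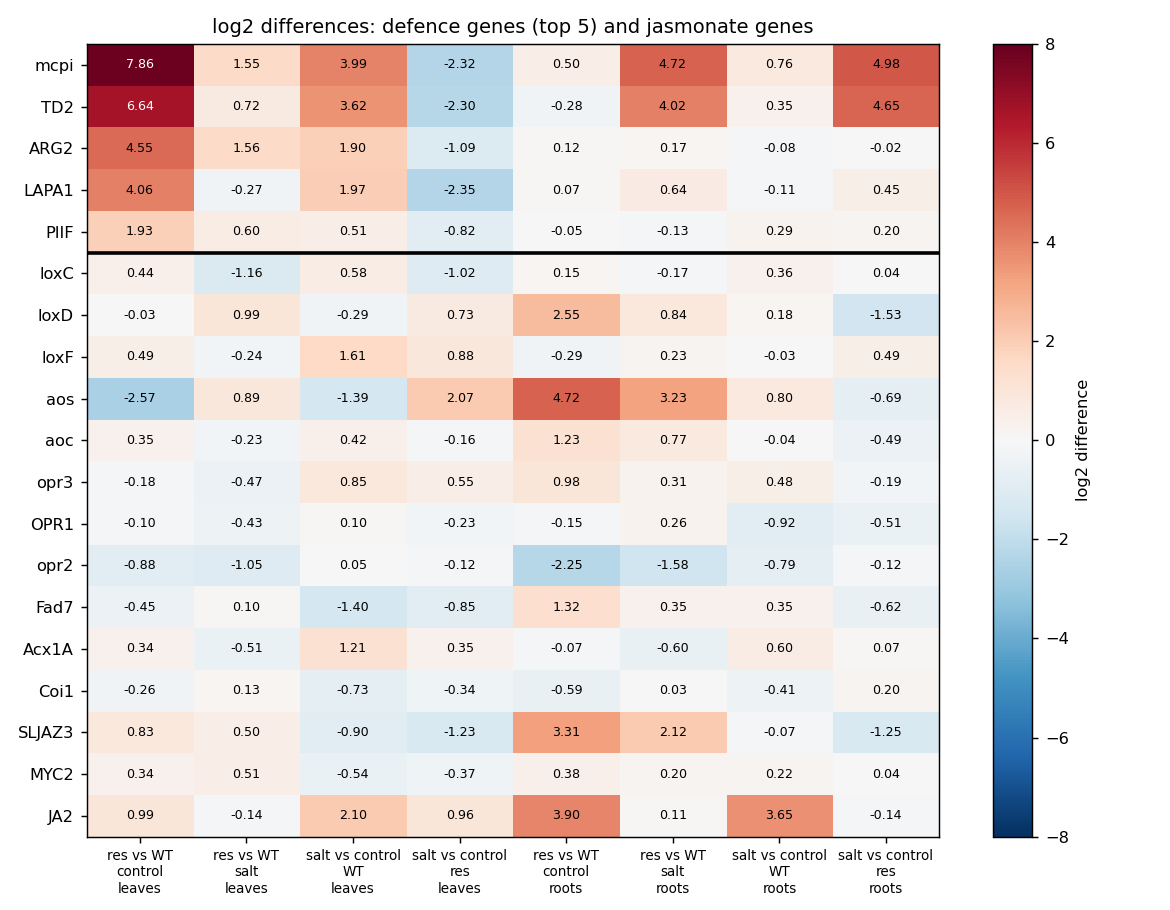
Log2 differences (numbers and colour, red higher and blue lower) in 8 comparisons. Above the black line are the 5 defence genes, below it 10 genes listed for jasmonate synthesis and 4 for jasmonate signalling. The defence genes are highest in the first column, control leaves of *res* vs WT (1.93 to 7.86), while *aos*, *loxD*, *SLJAZ3* and *JA2* are highest in control roots of *res* vs WT (2.55 to 4.72), where the defence genes lie between -0.28 and 0.50.

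Genes listed for the salicylate and pathogenesis response were a further point of reference. Which hormone each of them answers to was not tested here. Of 9 measured, 5 were called higher by salt in WT leaves and 5 in WT roots, whereas the root interaction was called negative in 7 of 9, opposite in sign to that of *mcpi* and *TD2*. The same calls took in 4.56%, 1.5% and 1.89% of all probe sets. *TSI-1*, a pathogenesis-related protein, had a root interaction of -4.51 and *CHI3*, an acidic chitinase, of -4.06. In control leaves of *res* vs WT none of the 9 was called higher. In control roots 4 were called higher in *res* and 0 lower, beside 2.96% and 2.47% of all probe sets. In salt-stressed leaves 5 were called lower in *res* and 0 higher, beside 3.21% and 1.15%.

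By the highest correlation with the mean profile of the 5 genes over the 24 arrays, the most similar of 870 named genes were *yfe37* (0.93), *ARPI* (0.93), *GABA-TP2* (0.91), *FK* (0.89) and *CAHS* (0.89). *yfe37* stayed between 1.04 and 1.68, under the array medians, so that its rank rests on small steps. *ARPI* ran from 6.40 in WT to 10.89 in *res* control leaves, and came to 9.12 and 8.73 in salt, but unlike the defence genes it was already high in control *res* roots (6.12 against 3.05 in WT). *GABA-TP2*, a transaminase of the GABA pathway, read 9.12 in WT and 10.64 in *res* control leaves. Within the 12 leaf arrays *ARPI* led (0.95), followed by *SAMDC*, *CAS1*, *GABA-TP2* and *CAHS* (0.93, 0.93, 0.93 and 0.92).

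Within the 12 root arrays the list was led by *TPS17*, a terpene synthase (0.98), then *MTSHP* (0.97), *ca3* (0.96), *NRAMP3*, a metal transporter (0.95), and *TBG1*, a beta-galactosidase (0.95). The defence genes were averaged without scaling, so in roots the mean profile is mainly the rise of *mcpi* and *TD2* in *res* after salt. *TPS17* read 5.55 in *res* salt-stressed roots and 2.39 to 3.06 in the other root groups, so that it was high in the same root group as *mcpi* and *TD2*, but in leaves it was highest in WT control (4.05). By single gene the best matches were *yfe37* and *ARPI* for *mcpi* (0.92 and 0.90) and for *TD2* (0.94 and 0.90), and *CAHS* and *PR-5* for *ARG2* (0.93 and 0.93). They were *CAHS* and *ARPI* for *LAPA1* (0.94 and 0.91) and *atpH* and *GLB1* for *PIIF* (0.92 and 0.91). With rank correlation 2 of the 5 genes over all arrays were shared, *GABA-TP2* and *yfe37*, 1 of 5 in leaves and none in roots.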

How the data were processed

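Gene expression was measured on 24 one-colour arrays. The deposited values are log2 intensities that the authors obtained by RMA (which corrects background, takes log2 and equalises the distributions of the arrays), with Partek named for annotation and statistics. Versions of these programs are not stated in the sources at hand. The 67795 probe sets had no missing values and were used without further scaling. Of these, 23194 had 1 gene symbol, 170 several and 44431 none; symbols were updated through RefSeq (assembly SLM_r2.1), from which only the order of genes was used, for neighbours, and no coordinates are printed.

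Differences were computed with limma 3.58.1 in R 4.3.3 on the 12 arrays of an organ as 4 groups, or on 24 arrays as 8 groups for leaf minus root, and checked on simulated data. Tables were made with pandas 2.3.3. The number of arrays limits the precision. By the study's methods, replicate arrays carry separate pools of plants.

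The 5 genes and all gene lists were chosen with earlier results of these data known. All 5 genes were named; of a list with over 8 measured genes, those called and those with the largest differences. The relatives *ARG1* and *LAPA2* were singled out after their values were seen. Symbols that matched a list by synonym only, of an auxin transporter and a cell wall enzyme, were removed. Replicate numbers did not pair the arrays. No sequences are shown, as none were used here.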

Additional observations from a re-analysis of the deposited data

Results flagged for a closer look

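In roots the salt response differed between the genotypes, by the interaction test, for *mcpi* (4.22, *res* minus WT, log2 scale) and *TD2* (4.30). In both, all 3 salt-stressed *res* arrays lay above all 3 *res* control arrays, as in 15.6% of all probe sets. The WT arrays overlapped in both genes.

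Under salt, the *res* vs WT difference was not the same in leaves and roots, by the test of leaf minus root, for *mcpi* (-3.18), *TD2* (-3.30) and *ARG2* (1.39). *mcpi* and *TD2* had the larger difference in roots and *ARG2* in leaves. *ARG2* was so dim in roots that a difference there may not be detectable.

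In leaves, every WT array was higher in salt than every WT control array while every *res* array was lower in salt than every *res* control array, for *mcpi*, *TD2*, *ARG2* and *LAPA1*. Of all probe sets 14.8% lay wholly higher in salt in WT leaves and 17.1% wholly lower in salt in *res* leaves. The salt effect in *res* minus that in WT was -6.31 for *mcpi*, -5.92 for *TD2*, -2.99 for *ARG2* and -4.33 for *LAPA1*. These differences were not tested, because the genes were chosen with control leaves in view.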

How the results depend on the processing

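Each of the 7 tested counts of called genes was recomputed under 8 other settings, with each array left out in turn and, chosen after seeing the data, without both arrays that stood apart. Of 159 recomputed counts, 158 were equal to the one reported. The exception was leaf minus root in salt, with 4 called genes in place of 3 without WT salt root array 2 (*LAPA1*, -1.01, adjusted p = 0.0123). Of the recomputed differences of single genes none changed from one called direction to the other. With the replicate number as a block, *mcpi* and *TD2* had root interactions of 4.22 (limma adjusted p = 0.000323) and 4.30 (adjusted p = 6.19e-05), and no count changed; the correlation of deviations of same-numbered arrays had a median of 0.0047 in leaves and -0.0095 in roots, so the numbers gave no pairing. The alternative with the next probe set of a gene gave no value, since each gene had 1. Leaving out the dimmest probe sets kept 45196 of them and all 5 genes. Dim values in roots limit what can be seen of *ARG2* and *PIIF*.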

Other observations

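The neighbours of the 5 genes in the RefSeq gene order (5 on each side) were looked at as well. They were chosen after values of these data had been seen, and their differences are descriptions from the same control leaf arrays. Of 8 measured neighbours of *PIIF*, 7 were over 2-fold higher in *res* than in WT control leaves and all 7 were over 2-fold lower in *res* leaves after salt. The neighbours of the other genes did so far less: 1 of 10 for *mcpi*, 1 of 8 for *TD2*, 0 of 8 for *ARG2* and 1 of 10 for *LAPA1* were over 2-fold higher in *res* control leaves. Over all probe sets 1.32% were called higher in *res* control leaves and 1.56% lower by salt in *res* leaves. Those calls also needed an adjusted p under 0.05, and the share over 2-fold alone was not computed.

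The *PIIF* neighbours carry only LOC symbols in the table, and no role is given to them here. LOC101246961 read 10.32 ± 0.06 in *res* and 5.97 ± 1.39 (SD, n = 3) in WT control leaves and 9.81 ± 0.01 in WT salt-stressed leaves. LOC101247857 read 6.39 in *res* and 1.64 in WT control leaves. In roots 5 of the 8 were over 2-fold higher in *res* after salt, where 1.58% of all probe sets were called higher. LOC101247257 and LOC101248423 reached 7.14 ± 0.16 and 6.08 ± 0.19 in *res* salt-stressed roots, from 2.19 and 1.40 in control. *PIIF* itself, between them, stayed between 0.82 and 1.37 in every root array. LOC101265677, 4 places from *PIIF*, differed by -0.16 in control leaves.

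Between *LAPA1* and *LAPA2* lies LOC101263597, whose leaf pattern was that of *LAPA1*: 5.02 higher in *res* than in WT control leaves, 2.34 higher with salt in WT leaves and 2.09 lower on the log2 scale with salt in *res* leaves, where its values were 9.68 in control and 7.59 in salt. *LAPA2*, on the other side of it, differed by under 2-fold in all 3.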
